A study of Homo sapiens with 6 samples.

Results

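Bone morphogenetic proteins (BMPs) are secreted ligands of the TGF-β family. They bring type II and type I receptor kinases together, the type I receptor phosphorylates SMAD1, SMAD5 and SMAD9, and these enter the nucleus with SMAD4. The ID genes and the inhibitory gene SMAD6 are among the direct targets known in many cell types. ID proteins have a helix-loop-helix domain but no basic DNA-binding region, and they hold E proteins away from DNA. The 10 genes described here were taken by name from the joint expression table of 30483 genes: the ligand gene BMP4, the receptor genes BMPR1A and BMPR2, the pseudoreceptor gene BAMBI, the SMAD genes SMAD1, SMAD5 and SMAD6, and the target genes ID1, ID2 and ID3. All 10 were found and all 10 had enough reads to be tested.

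The RNA came from A549, a human lung adenocarcinoma cell line in long use. Cells were kept for 48 h with 5 µM anlotinib, which blocks several receptor tyrosine kinases (VEGF, FGF and PDGF receptors among them), in 3 libraries, or with the solvent DMSO in 3 libraries. The series asked which pathways respond to the drug, with matrix genes and RhoA/ROCK in view. Whether replicates came from separate cultures is not labelled, so p-values reflect the spread among these samples alone, and that spread may be technical.

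Libraries held 13886120 to 15386107 reads assigned to genes. Of 7 epithelial and A549 markers, 6 averaged at least 10 normalized counts, and EPCAM stayed under that level. Summed, they reached 77506 to 102289 with anlotinib and 106393 to 109538 with DMSO. The markers did not move together: ALDH1A1 fell (log2 fold change -0.54, limma adjusted p = 0.0159), whereas KRT19 and CDH1 rose (1.28 and 0.53, limma adjusted p = 0.000186 and 0.0171). Of 5 fibroblast markers 4 were in the table, none at 10 or more, with sums of 20.4 to 23.2 with anlotinib and 6.12 to 8.21 with DMSO. Endothelial markers summed to 9.08 to 21.9 with anlotinib and 9.18 to 18.5 with DMSO, and blood markers to at most 2.02 and 4.11. Mitochondrially encoded genes took 8.74% to 10.9% of reads with anlotinib and 7.81% to 8.76% with DMSO. The part of these measures in the results was not tested. Anlotinib replicate 1 stood apart from its group: on the component that separated the treatments, with 57.9% of the variance, it scored 19.1, the remaining anlotinib libraries 36.2 and 41, and the DMSO libraries -34.9 to -30.1.

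Promoter windows are printed for the target gene with the highest level and for the ligand and receptor genes whose RNA differed between the groups. They are the bases before a RefSeq start on GRCh38.p14, cut where an exon of the gene in GENCODE release 29 begins. Windows of ID2 and ID3 lie mostly in such exons and are not shown. Capitals mark any of 4 motifs on either strand: the GC-rich SMAD element GGCGCC, the SMAD box CAGAC, the E-box CANNTG and the TATA box TATAAA. The ID1 window is chr20:31605039-31605282 on the plus strand, the BMP4 window, upstream of the farthest of its 3 RefSeq starts, is chr14:53955051-53955300 on the minus strand, and the BMPR2 window is chr2:202376077-202376326 on the plus strand.
ID1: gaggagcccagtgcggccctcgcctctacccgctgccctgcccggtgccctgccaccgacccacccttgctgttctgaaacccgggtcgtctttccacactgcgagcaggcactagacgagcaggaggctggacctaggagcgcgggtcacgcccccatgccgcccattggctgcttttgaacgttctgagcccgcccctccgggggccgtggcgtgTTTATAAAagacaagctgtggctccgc
BMP4: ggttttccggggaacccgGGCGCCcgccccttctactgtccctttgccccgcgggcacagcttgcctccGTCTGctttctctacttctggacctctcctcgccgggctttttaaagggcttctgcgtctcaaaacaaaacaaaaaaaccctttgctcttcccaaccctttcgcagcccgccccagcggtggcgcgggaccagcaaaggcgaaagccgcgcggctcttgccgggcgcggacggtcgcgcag
BMPR2: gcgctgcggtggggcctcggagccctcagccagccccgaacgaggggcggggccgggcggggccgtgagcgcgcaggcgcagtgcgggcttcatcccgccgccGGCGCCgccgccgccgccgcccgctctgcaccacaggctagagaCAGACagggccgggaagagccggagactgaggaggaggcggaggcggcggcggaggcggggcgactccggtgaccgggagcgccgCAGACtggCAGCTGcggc
Both capital matches in ID1 are overlapping copies of the TATA box, a motif found in 10.7% of 35116 promoter windows of 250 bases. GGCGCC is in 16.4% of those windows and stands in the BMP4 and BMPR2 windows. CAGAC is in 38% and stands in the same windows, with 2 copies in BMPR2. The E-box is in 61.8% and stands in BMPR2. The BMP4 windows that are not printed hold no GGCGCC, but the window at chr14:53953396-53953645 holds a CAGAC and an E-box. The printed BMP4 window lies inside the gene as GENCODE annotates it, which reaches to 53958761. The 10 genes had 16 windows in all. GGCGCC stood in 5 of the 16 windows, CAGAC in 6, the E-box in 8 and the TATA box in 3. Counted by gene, GGCGCC was found for 4 of the genes, CAGAC for 5, the E-box for 6 and the TATA box for 3. SMAD1 had 5 windows, some of them overlapping, and BMP4 had 3, which gives these genes more room for a match. The shares over all promoters are per window, so the counts by gene cannot be set against them. A match describes letters in this window and is not evidence of binding. Bases farther upstream were not searched, so a motif missing from a window may lie outside it.

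At the level of transcripts, ID1 was the most abundant of the 10 genes per length in both groups and SMAD1 the least. Levels were compared as normalized counts per kilobase of exon, with the gene lengths of the deposited table. ID1 averaged 4422 ± 421 per kilobase with anlotinib and 4345 ± 408 with DMSO (SD, n = 3 each). ID3 followed with 2232 ± 439 and 2509 ± 72, and ID2 with 845 ± 61.5 and 674 ± 57.5. BAMBI had 420 ± 42.1 with anlotinib and 372 ± 20.6 with DMSO, next to SMAD6 with 355 ± 46.3 and 376 ± 9.86. Libraries of BAMBI and SMAD6 overlapped within each group, so their order is not resolved. SMAD5 stood at 121 ± 11.7 with anlotinib and 121 ± 4.39 with DMSO, and BMPR2 at 120 ± 8.38 and 148 ± 12.4. These overlapped with anlotinib, whereas with DMSO every BMPR2 library lay above every SMAD5 library. BMPR1A, BMP4 and SMAD1 closed the order in both groups, SMAD1 with 36 ± 5.6 and 25.7 ± 3.09. The lengths are unions of all annotated exons, and which transcripts were expressed was not measured. In counts not divided by length, BMP4 was below SMAD1, at 162 against 218 with anlotinib and 111 against 156 with DMSO. The order of these genes thus depends on the lengths.

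**Figure D1:**
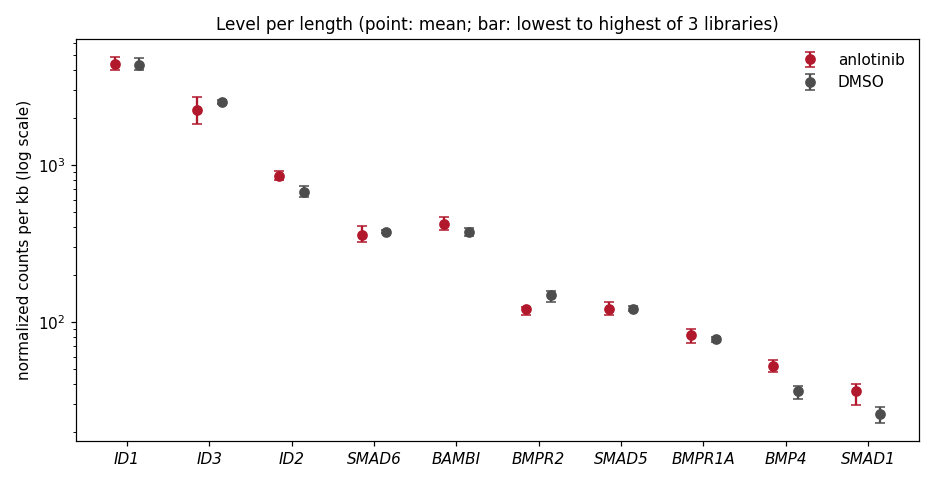
Level of each gene in normalized counts per kilobase of exon (log axis), genes in the order of the DMSO means, anlotinib left of DMSO. Points are means and bars run over the 3 libraries of a group; ID1 is highest at 4422 and 4345, SMAD1 lowest at 36 and 25.7.

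Of the 10 genes, 3 rose with anlotinib (BMP4, SMAD1 and ID2), 1 fell (BMPR2) and 6 did not pass. The changes were small, between 1.23-fold lower and 1.46-fold higher, and the more abundant targets ID1 and ID3 were among those that did not pass. Genes were tested with limma-trend on log2(normalized count + 1), with Benjamini-Hochberg adjustment over all 15734 genes that averaged at least 10 normalized counts. It called 23.2% of all tested genes, 10.5% higher and 12.7% lower. In bulk RNA, fewer cells with a transcript and less of it per cell cannot be told apart. The median log2 fold change was 0.05 for the 10 genes and -0.02 for all tested genes, and the median size regardless of sign 0.18 and 0.23. The 2 groups of libraries did not overlap for 4 of the 10 genes and for 40.2% of all tested genes, so the 10 genes were no more often separated than genes at large. The number called depended on single libraries. It was 5 without anlotinib replicate 1, 1 without anlotinib replicate 2, 3 without anlotinib replicate 3, 3 without DMSO replicate 1 and 2 without DMSO replicate 3. It was 0 with limma without DMSO replicate 2, where 4 genes had an unadjusted p under 0.05. The count over all tested genes moved too, from 3648 to 5473, 1979 and 3401 without anlotinib replicates 1, 2 and 3. Without DMSO replicates 1, 2 and 3 the count over all tested genes was 2288, 2259 and 2313.

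**Figure D2:**
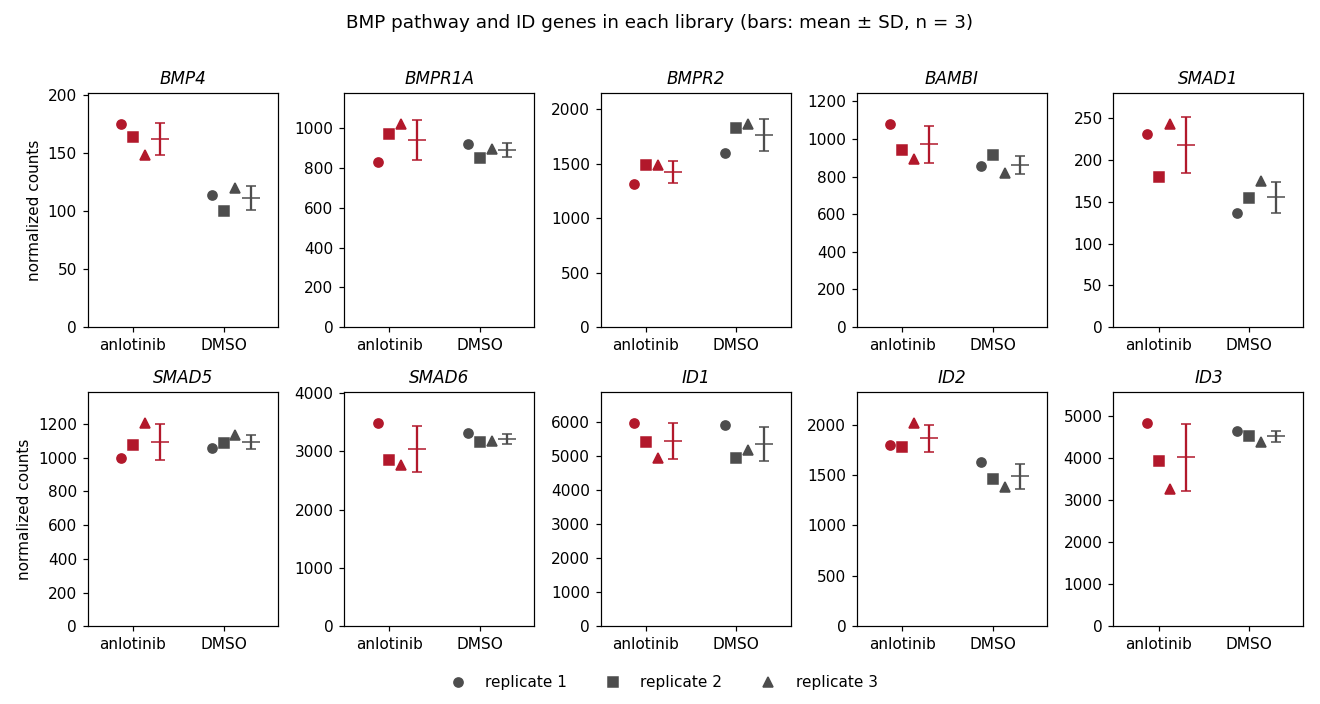
Normalized counts of the 10 genes in each library, anlotinib left of DMSO, with a linear axis from 0 for each gene. Symbols mark the replicate number and bars the mean ± SD (n = 3); BMP4, SMAD1, ID2 and BMPR2 show no overlap between groups, the other 6 overlap.

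BMP4 encodes the only ligand among the 10 genes (chromosome 14, 53949736 to 53958761, minus strand, GRCh38). It had 176, 164 and 148 normalized counts in the anlotinib libraries and 114, 100 and 120 in the DMSO libraries. Every anlotinib library lay above every DMSO library. BMP4 rose 1.46-fold, to 162 ± 13.8 with anlotinib against 111 ± 10.3 with DMSO (n = 3 per group), a log2 fold change of 0.54 with a 95% interval of 0.23 to 0.86 (limma adjusted p = 0.0174). The call was lost without anlotinib replicate 2 (adjusted p = 0.0698) and without DMSO replicate 2 (adjusted p = 0.0764). In the authors' deposited table BMP4 has a log2 fold change of 0.55 and an adjusted p of 0.0385.

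Of the genes for receptors and the pseudoreceptor, BMPR2 fell, and BMPR1A and BAMBI did not pass. BMPR2, the type II receptor kinase (chromosome 2, 202376936 to 202567751, plus strand), had 1311, 1484 and 1484 normalized counts with anlotinib and 1595, 1824 and 1869 with DMSO. The highest anlotinib library lay below the lowest DMSO library. BMPR2 was 1.23-fold lower with anlotinib, at 1427 ± 99.7 against 1763 ± 147 (n = 3 per group), with a log2 fold change of -0.30 and a 95% interval of -0.51 to -0.10 (limma adjusted p = 0.034). This call was lost without anlotinib replicate 2, DMSO replicate 2 or DMSO replicate 3 (adjusted p = 0.0841, 0.132 and 0.158), and likewise if no filter was set on low values (0.0526) or if libraries were scaled by their totals (-0.23, adjusted p = 0.127). BMPR2 overlaps annotated noncoding genes on both strands.

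BMPR1A, a type I receptor kinase also known as ALK3 (chromosome 10, 86756601 to 86932838), averaged 941 ± 98.9 with anlotinib and 888 ± 35.1 with DMSO (n = 3 per group). Its log2 fold change was 0.08 with a 95% interval of -0.13 to 0.29 (limma adjusted p = 0.605). Anlotinib replicate 1 was below all DMSO libraries and the other anlotinib libraries were above them. BAMBI, which resembles a type I receptor but lacks the kinase and dampens signalling of the family (chromosome 10, 28677342 to 28682939), averaged 972 ± 97.4 with anlotinib and 861 ± 47.7 with DMSO. Its log2 fold change was 0.17 with a 95% interval of -0.04 to 0.38 (limma adjusted p = 0.231). The ratio of BMPR2 to BMPR1A within a library, which no scaling between libraries can change, was 1.58, 1.53 and 1.45 with anlotinib and 1.74, 2.15 and 2.09 with DMSO.

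Among the SMAD genes 1 rose. SMAD1, which carries the BMP signal to the nucleus (chromosome 4, 145481194 to 145558079, plus strand), had 231, 180 and 244 normalized counts with anlotinib and 137, 155 and 175 with DMSO. The groups did not overlap, but the lowest anlotinib library and the highest DMSO library lay close together. SMAD1 rose 1.39-fold, to 218 ± 33.9 against 156 ± 18.7 (n = 3 per group), with a log2 fold change of 0.48 and a 95% interval of 0.15 to 0.81 (limma adjusted p = 0.038). The call was lost without anlotinib replicate 3, DMSO replicate 1 or DMSO replicate 2 (adjusted p = 0.104, 0.146 and 0.099). SMAD1 has an adjusted p of 0.0552 in the authors' deposited table. It overlaps antisense genes, and strand-specific counting is not stated, so their reads cannot be told apart there.

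SMAD5, a close relative with the same role (chromosome 5, 136132845 to 136188747), had 1000, 1074 and 1208 normalized counts with anlotinib and 1058, 1088 and 1137 with DMSO. The groups overlapped fully, with means of 1094 ± 106 and 1094 ± 39.7 (n = 3 per group). Its log2 fold change was -0.00, with a 95% interval of -0.21 to 0.20 (limma adjusted p = 0.982), and its sign turned with TMM scaling (0.02) and with scaling by library totals (0.07). The SMAD1 to SMAD5 ratio of normalized counts was 0.231, 0.167 and 0.202 with anlotinib and 0.13, 0.143 and 0.154 with DMSO. SMAD6, an inhibitory SMAD that BMP signalling induces (chromosome 15, 66702228 to 66782848), had 3494, 2858 and 2765 normalized counts with anlotinib and 3316, 3158 and 3185 with DMSO. Anlotinib replicate 1 was the highest of the 6 libraries and the other anlotinib libraries were the lowest. The log2 fold change was -0.09 with a 95% interval of -0.30 to 0.12 (limma adjusted p = 0.55), and -0.20 without anlotinib replicate 1 (adjusted p = 0.0638).

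Of the ID genes, ID2 rose, and ID1 and ID3 did not pass. ID1 (chromosome 20, 31605283 to 31606515, plus strand) had 5989, 5417 and 4952 normalized counts with anlotinib and 5923, 4961 and 5186 with DMSO. The groups overlapped, with means of 5453 ± 519 and 5357 ± 503 (n = 3 per group). The log2 fold change was 0.03 with a 95% interval of -0.20 to 0.25 (limma adjusted p = 0.884), and it was -0.04 without anlotinib replicate 1 and -0.03 without DMSO replicate 2.

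ID2 (chromosome 2, 8678845 to 8684453, plus strand) had 1796, 1775 and 2020 normalized counts with anlotinib and 1627, 1456 and 1379 with DMSO. All anlotinib libraries lay above all DMSO libraries. ID2 rose 1.25-fold, to 1864 ± 136 against 1487 ± 127 (n = 3 per group), with a log2 fold change of 0.33 and a 95% interval of 0.12 to 0.53 (limma adjusted p = 0.0247). The call was lost without anlotinib replicate 2, DMSO replicate 2 or DMSO replicate 3 (adjusted p = 0.063, 0.095 and 0.131). An antisense gene, ID2-AS1, overlaps it.

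ID3 (chromosome 1, 23557918 to 23559794, minus strand) had 4837, 3930 and 3264 normalized counts with anlotinib and 4630, 4522 and 4372 with DMSO. Anlotinib replicate 1 lay above every DMSO library, and the other anlotinib libraries lay below every DMSO library. With means of 4010 ± 790 and 4508 ± 129 (n = 3 per group), the log2 fold change was -0.19 with a 95% interval of -0.45 to 0.08 (limma adjusted p = 0.3). Without anlotinib replicate 1, the library nearest to DMSO over all genes, it was -0.33 and passed (adjusted p = 0.00729).

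Within each library ID2 was compared with its relatives. The ID2 to ID1 ratio was 0.3, 0.328 and 0.408 with anlotinib and 0.275, 0.293 and 0.266 with DMSO. The ID2 to ID3 ratio was 0.371, 0.452 and 0.619 with anlotinib and 0.351, 0.322 and 0.315 with DMSO. Neither ratio overlapped between groups, nor did the SMAD1 to SMAD5 and BMPR2 to BMPR1A ratios. For each of these 4 ratios, chosen after the values were seen, a two-sided exact permutation test gave p = 0.1, also after adjustment over the 4, which is the smallest it can give for 3 against 3. The summed normalized counts of ID1, ID2 and ID3 were 11327 ± 1206 with anlotinib and 11352 ± 717 with DMSO (n = 3 per group).

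**Figure D3:**
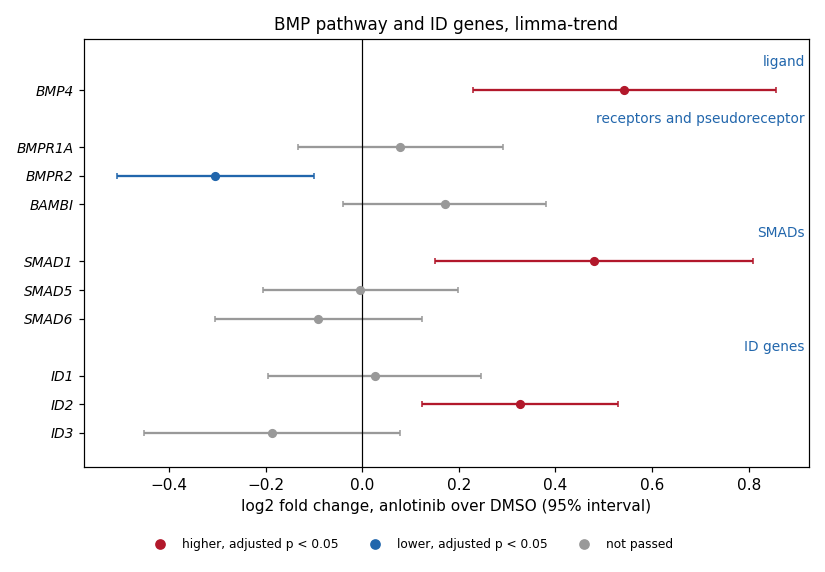
Log2 fold change of the 10 genes, anlotinib over DMSO, with 95% intervals from limma-trend, grouped by role. BMP4, SMAD1 and ID2 lie above 0, BMPR2 lies below 0, and the intervals of the other 6 genes include 0.

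Other genes of the pathway were taken from a list of 53 ligands, antagonists, receptors, SMADs and their regulators, targets and E proteins. Of these 50 were in the table and 38 were tested. With anlotinib 8 rose, 9 fell and 21 did not pass, so 44.7% of the tested list was called, beside 23.2% of all tested genes. The list was drawn up with earlier results of these data known, so its share is not an independent result. The list's median log2 fold change was 0.13. Its count ranged from 12 to 19 when single libraries were left out.

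Among the other ligand genes, 1 of 6 tested changed (16.7%), beside 23.2% of all tested genes. BMP8B had 348, 253 and 260 normalized counts with anlotinib and 466, 478 and 447 with DMSO, with no overlap, and was 1.63-fold lower (limma adjusted p = 0.0019). BMP8B has a near-identical copy, BMP8A, and overlaps other genes, so its count is uncertain. BMP2, BMP6 and BMP7, ligands that share receptors with BMP4, had log2 fold changes of -0.15, -0.03 and -0.08 (limma adjusted p = 0.686, 0.882 and 0.769).

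Over all tested genes 12.7% fell and 10.5% rose. Of 9 tested genes for secreted or membrane-bound antagonists and modulators of BMP and activin ligands, 5 fell and 1 rose. CRIM1, a membrane protein that binds BMPs, was the most abundant of them in reads, with 3214, 2899 and 3314 normalized counts with anlotinib and 4788, 4911 and 4959 with DMSO. The groups lay far apart and CRIM1 was 1.56-fold lower (limma adjusted p = 0.000226). FSTL3, a follistatin relative best known for binding activin, had 1913, 1294 and 1184 normalized counts with anlotinib and 3004, 3326 and 2980 with DMSO. It was 2.17-fold lower (limma adjusted p = 0.000192), and anlotinib replicate 1 was again nearest to DMSO. GREM1, gremlin 1, which sequesters BMP2 and BMP4, was 1.7-fold lower (limma adjusted p = 0.00203), averaging 169 ± 25.5 with anlotinib and 286 ± 31.5 with DMSO (n = 3 each). BMPER, a BMP-binding modulator, was 2.13-fold lower (limma adjusted p = 0.000389), averaging 108 ± 18 with anlotinib and 230 ± 31.3 with DMSO (n = 3 each). NBL1, a member of the same DAN family as gremlin, was 1.45-fold lower (limma adjusted p = 0.0229), and its call was lost without anlotinib replicate 2 and without DMSO replicates 1, 2 or 3 (adjusted p = 0.0757, 0.0638, 0.1 and 0.0563). NBL1 shares its strand with a readthrough gene. KCP, a chordin-like protein that enhances BMP signalling in mouse, had few reads and rose, with 37.3, 34.2 and 71.8 normalized counts with anlotinib and 8.57, 3.06 and 2.05 with DMSO (log2 fold change 3.23, limma adjusted p = 0.000408). With a pseudocount of 5 in place of 1, the log2 fold change of KCP was 2.46. KCP overlaps genes on both strands. NOG, encoding noggin, stood at 1.11 and did not pass (limma adjusted p = 0.0721), although it did without anlotinib replicate 1, without DMSO replicate 2 and with a replicate block.

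Of 7 tested receptor and co-receptor genes, 2 rose and 5 did not pass, so 28.6% were called, beside 23.2% of all tested genes. RGMA and RGMB, membrane-anchored BMP co-receptors, rose 2.41-fold and 1.48-fold (limma adjusted p = 0.00728 and 0.0158). RGMA had only 50 ± 12.1 normalized counts with anlotinib and 20.2 ± 5.23 with DMSO. RGMB had 186 ± 9.86 and 126 ± 19, and its call was lost without anlotinib replicate 2 and without DMSO replicate 1 (adjusted p = 0.0739 and 0.0712). The type I receptor gene ACVR1 stood at 0.28 and the type II receptor gene ACVR2A at 0.36 (limma adjusted p = 0.0839 and 0.0532). ACVR2A passed with edgeR, with TMM scaling and with scaling by library totals, among other settings.

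Of 8 SMADs and regulators, 2 rose and 2 fell, so 50% were called, beside 23.2% of all tested genes. SMAD9, the relative of SMAD1 and SMAD5, also with few reads, rose 2.13-fold, to 62.1 ± 6.85 with anlotinib against 29.3 ± 8.93 with DMSO (n = 3 per group; limma adjusted p = 0.00831). SMAD7, an inhibitory SMAD of both TGF-β and BMP signalling, had 665, 610 and 700 normalized counts with anlotinib and 848, 903 and 929 with DMSO. The groups did not overlap and SMAD7 was 1.36-fold lower (limma adjusted p = 0.00439). SMURF2, a ubiquitin ligase for SMADs and their receptors, was 1.27-fold lower (limma adjusted p = 0.0246). The SMURF2 call was lost without anlotinib replicate 2, DMSO replicate 2 or DMSO replicate 3 (adjusted p = 0.111, 0.115 and 0.0869), and also if libraries were scaled by their totals (0.111). ZNF423, a zinc finger partner of SMADs with under 40 normalized counts in every library, rose with a limma adjusted p of 0.0465, a call lost when any library but anlotinib replicate 3 was left out (adjusted p = 0.061 to 0.227). The ZNF423 call was also lost with limma-voom (adjusted p = 0.0546), if genes down to a mean of 1 were tested (0.0544) and if no gene was filtered out (0.08). SMAD4, the shared partner of all receptor-regulated SMADs, stood at -0.04 (limma adjusted p = 0.812).

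All 5 tested genes listed as further targets had positive log2 fold changes, and 3 of them passed, beside 10.5% of all tested genes called higher. The inhibitory SMAD gene SMAD7, listed with the SMADs and not with these targets, fell (-0.44, limma adjusted p = 0.00439). The targets among the 10 genes were mixed. ID2 rose (0.33), whereas ID1, ID3 and SMAD6 stood at 0.03, -0.19 and -0.09 and did not pass. ATOH8, a helix-loop-helix factor induced by BMP signalling, had 1474, 976 and 788 normalized counts with anlotinib and 649, 603 and 591 with DMSO. The groups did not overlap, and anlotinib replicate 1 was the highest library. ATOH8 rose 1.7-fold (limma adjusted p = 0.00726). MSX1, a homeobox gene, rose 1.47-fold, to 267 ± 15.1 against 181 ± 12.3 (n = 3 per group; limma adjusted p = 0.00512). ID4, the remaining ID gene, had 276, 203 and 171 normalized counts with anlotinib and 145, 139 and 145 with DMSO, again with the highest value in anlotinib replicate 1. ID4 rose 1.49-fold (limma adjusted p = 0.0262), and its call was lost when any library but anlotinib replicate 3 was left out (adjusted p = 0.0505 to 0.0837). HEY1 and MSX2 stood at 0.62 and 0.38 (limma adjusted p = 0.0544 and 0.0782), and both passed with scaling by library totals. That scaling moved the median log2 fold change of all tested genes from -0.02 to 0.06. HEY1 also passed with TMM scaling and limma-voom, but not with edgeR or DESeq2, and MSX2 passed with none of these.

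Of the E protein genes, whose products ID proteins bind, TCF3 fell and TCF4 and TCF12 did not pass. TCF3, which encodes E12 and E47, had 1648, 1314 and 1201 normalized counts with anlotinib and 2042, 2139 and 1962 with DMSO. The groups did not overlap and TCF3 was 1.49-fold lower (limma adjusted p = 0.00278). TCF4 stood at -0.03 and TCF12 at 0.13 (limma adjusted p = 0.909 and 0.35).

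**Figure D4:**
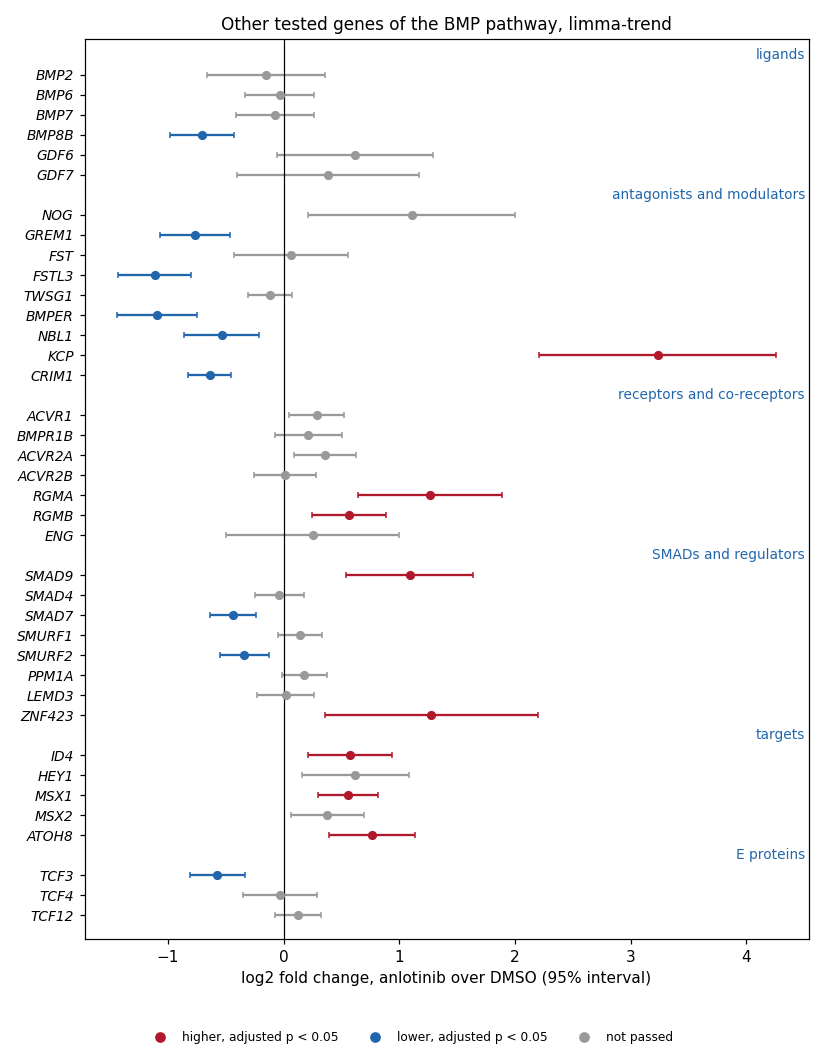
Log2 fold change, anlotinib over DMSO, with 95% intervals from limma-trend, for the 38 tested genes of the pathway list by role. The 8 genes that rose include RGMA, SMAD9, ATOH8 and MSX1, and the 9 that fell include FSTL3, BMPER, GREM1, SMAD7 and TCF3.

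Of the list, 15 genes could not be tested, 12 of them because they averaged under 10 normalized counts, and 3 are not analysed here. DLX5, a homeobox target of BMP signalling in bone cells, had 0, 13 and 7 reads in the anlotinib libraries and 0 in every DMSO library. CHRD, encoding chordin, had 8, 10 and 8 reads with anlotinib and 4, 2 and 5 with DMSO.

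The tested genes whose profile over the 6 libraries was most like that of ID1 were SCRIB, GNL1 and ABHD17A. Likeness was the root mean square difference of log2 values, each taken relative to the DMSO mean, among genes with a mean of at least 100. It was 0.03 for SCRIB, 0.03 for GNL1 and 0.04 for ABHD17A, each over 6 libraries.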

How the data were processed

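The authors deposited 1 table with all 6 libraries and 5 files that repeat single libraries with identical values. Its expression values are a signal, normalized counts: the authors divided the reads of a gene by 1 size factor per library. This is seen in the values, which are whole multiples of 1 step per library for 100% of values (tolerance 1e-06), so 1 read is worth 0.887 to 1.07. A log2 fold change, a p-value and an adjusted p-value per gene were deposited beside them. Aligner, counter and strand setting: not given in the sources used here. CRIM1, GREM1, RGMB, SMURF2, ID4 and SMAD5, among others, also overlap genes on the opposite strand, whose reads cannot be told apart there. In the submitters' processing notes the build is mm9, from mouse, but coordinates of all 30483 genes equal GENCODE release 29 on GRCh38, which is used here, and lengths of the 10 genes equal their exon unions there. Promoter sequences come from RefSeq tables for GRCh38.p14, which held all 10 genes; no protein sequences were used.

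limma-trend was fitted on log2(normalized count + 1), with treatment only, for genes with a mean of at least 10, and was tested on simulated data. Fold changes are on that scale, which understates changes of low genes. edgeR, DESeq2 and limma-voom on the recovered reads were alternatives; edgeR called 3722 genes. The 10 genes, the pathway list, the tests and the alternatives were chosen with earlier results of these data known. All 10 genes are named, every pathway gene that passed, and contrasting receptor, SMAD and E protein genes; NOG, HEY1, MSX2, BMP2, BMP6, BMP7, DLX5 and CHRD were added after their values were seen. Tools were Python 3.11.15 with scipy 1.17.1, pandas 2.3.3, numpy 2.4.6 and matplotlib 3.10.9, and R 4.3.3 with DESeq2 1.42.0, edgeR 4.0.16 and limma 3.58.1.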

Additional observations from a re-analysis of the deposited data

How the results depend on the processing

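The 10 genes gave the same 4 calls with pseudocounts 0.5 and 5, minimum means of 1 and 50, TMM scaling, edgeR, DESeq2 and limma-voom; 3 remained with no filter and with scaling by library totals, BMPR2 being the one lost. Leaving out 1 library gave 0 to 5 calls among the 10 genes, 12 to 19 in the pathway list and 1979 to 5473 over all genes, of 4, 17 and 3648. Over all genes scaling by library totals gave 2068 higher and 1552 lower, against 1645 and 2003. Of 170 alternative values for the 10 genes, 146 kept direction and side of the threshold, 13 lost a call, 1 gained one (ID3 at -0.33 without anlotinib replicate 1) and 10 changed sign. Those 10 were near 0. SMAD5, at -0.00, was at 0.019 with TMM scaling, 0.0247 with edgeR, 0.0177 with DESeq2, 0.0198 with limma-voom and 0.0713 with library totals, and at -0.0774 to 0.0592 with single libraries left out. ID1 was at -0.0445 to 0.0999 with single libraries left out. The cause was not tested.

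Over all tested genes, same-numbered libraries of the 2 groups did not deviate together (correlations of -0.04, 0.03 and -0.003). Correlations over all genes cannot show whether such libraries shared a culture or a batch, and the labels do not say. With a replicate block 4 of the 10 genes, 18 pathway genes and 3552 genes in all were called. With 3 libraries a group, the printed 95% intervals give the precision of each fold change.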

Other observations

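The deposited table assigns genes to transcription factor families, and these annotations put the SMAD and ID genes among relatives outside the BMP branch. In the MH1 family, which holds the SMADs, 2 of 8 genes rose with anlotinib (SMAD1 and SMAD9) and 2 fell (SMAD3 and SMAD7), beside 23.2% of all tested genes called in either direction. Among these, SMAD1, SMAD7 and SMAD9 were already counted above. SMAD3, which carries TGF-β and activin signals, averaged 4665 ± 150 normalized counts with anlotinib and 5933 ± 142 with DMSO (n = 3 per group; log2 fold change -0.35, limma adjusted p = 0.00938). SMAD2, with the same role, averaged 1420 ± 50.7 and 1364 ± 30.7 (0.06, adjusted p = 0.649).

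Of 55 tested genes assigned to the bHLH family, which includes the ID genes, 12 rose and 7 fell, so 34.5% were called, beside 23.2% of all tested genes. Named for the largest changes among those with a mean of at least 100 and outside the lists above, MLXIPL, encoding the glucose-responsive factor ChREBP, rose by 1.77 on the log2 scale, SREBF2, the activator of cholesterol synthesis genes, by 1.04 and MXD1, a partner of MAX, by 0.95 (limma adjusted p = 8.69e-06, 2.44e-05 and 0.00172). ARNTL2, a clock factor, HES4, a relative of Notch target genes, and TFEB, an activator of lysosomal genes, were at -0.97, -0.82 and -0.61 (limma adjusted p = 1.45e-05, 0.00175 and 0.0133). They were chosen after their values were seen. The called bHLH genes also include ID2, ID4, ATOH8 and TCF3, which were already counted above.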
